A study of Mus musculus with 36 samples.

Results

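Tbx1, Tbx2, Tbx3, Tbx4, Tbx6, Tbx20, T and Eomes are 8 genes of the T-box family of transcription factors. They were chosen by name from the 55401 genes counted in 36 RNA-seq libraries of mouse embryonic stem cells (ESCs) and epiblast-like cells (EpiLCs). The study asks how the Polycomb complexes PRC2.1, PRC2.2 and canonical PRC1 act when ESCs turn into EpiLCs. There were 12 groups of 3 libraries, all labelled strain C57BL/6. J2KO lacks JARID2, a subunit of PRC2.2, and J2WT is its wild-type (WT) control. QKO lacks JARID2 together with PHF1, MTF2 and PHF19, the Polycomb-like subunits of PRC2.1. TKO lacks only these Polycomb-like proteins, and PclWT is the control of both lines. These 5 lines were measured as EpiLCs and as ESCs. Pcgf24KO, without the canonical PRC1 subunits PCGF2 and PCGF4, and its WT control were measured as EpiLCs only, and the labels do not name the parent line of that WT. ESCs grew with serum, LIF, a GSK inhibitor (3 µM) and a MEK inhibitor (1 µM). EpiLCs spent 2 days on fibronectin with Activin A (20 ng/ml) and bFGF (12 ng/ml). The labels do not say whether the 3 libraries of a group are separate cultures, so a p-value measures only the spread between these libraries.

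T-box proteins share a DNA-binding domain and pattern the embryo. Tbx3 helps to keep mouse ESCs in the naive state, and it was one of the loci at which the study followed Polycomb binding in EpiLCs. T (Brachyury) and Eomes (Eomesodermin) drive the primitive streak and mesendoderm, Eomes also acts in trophoblast, and T is a target of Wnt signalling. Tbx6 acts in paraxial mesoderm, Tbx20 in the heart, Tbx1 in the pharyngeal region, Tbx4 in the hindlimb and lung, and Tbx2 in the heart and limb. Genes of this kind are classical targets of PRC2, which places the repressive mark H3K27me3.

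Counts in genes were 6784578 to 18026492 per library. Phf1 and Mtf2 counts were lower in TKO than in PclWT (log2 fold changes of -3.77 and -3.29 in ESCs, and -5.69 and -2.37 in EpiLCs), and likewise in QKO. By the thresholds given below, Phf19 was called lower than in PclWT in QKO EpiLCs but not in TKO EpiLCs. Jarid2 was not called in QKO against PclWT at either stage. Jarid2 counts in J2KO were within 2-fold of J2WT (-0.16 in ESCs and -0.59 in EpiLCs), as were Pcgf2 and Bmi1, the gene of PCGF4, in Pcgf24KO (0.14 and 0.08), so the whole-gene counts do not check these labels. The summed CPM (read counts scaled to library size, with TMM factors) of 6 naive markers was 217 to 1150 in EpiLCs and 3080 to 5190 in ESCs. That of 4 formative markers (Fgf5, Dnmt3b, Otx2 and Pou3f1) was 310 to 2990 in EpiLCs and 94.1 to 268 in ESCs, and was lower in the EpiLCs of QKO (310 to 360), TKO (674 to 715) and PclWT (517 to 585) than in those of J2KO (2830 to 2910) and J2WT (2900 to 2990). Replicate 1 of the PclWT EpiLCs and replicate 2 of the QKO EpiLCs stood apart from their groups. The T-box genes chosen by name are termed members below. Calls of members past the count minimum that rest on these libraries are also given without them. Calls of other genes are given with all libraries only. In bulk RNA, fewer cells of a type and less RNA per cell cannot be told apart.

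Tbx3 was by far the most abundant of the 8 genes in ESCs. In J2WT ESCs it had 63.8 ± 0.772 RPKM (CPM per kilobase of exon; mean ± SD, n = 3), against 1.70 ± 0.02 RPKM for Eomes, 1.39 for T, 0.239 for Tbx20 and 0.018 to 0.163 for the other 4. In J2WT EpiLCs Eomes led with 2.19 RPKM, Tbx4 had 1.16, Tbx3 had 1.04, Tbx6 had 0.446, and the other 4 had 0.0172 to 0.0534. Within a gene, Tbx3 was highest in J2KO ESCs (587 ± 6.79 CPM), followed by QKO ESCs (565 ± 13.2), TKO ESCs (530 ± 5.82), J2WT ESCs (423 ± 5.12) and PclWT ESCs (343 ± 21.3). The EpiLC groups followed in the order QKO (144 ± 4.69 CPM), TKO (41.9 ± 2.09), Pcgf24KO (13.3 ± 2.51), J2KO (9.18 ± 0.90), PclWT (8.84 ± 1.82), J2WT (6.90 ± 0.599) and WT (3.88 ± 0.608). Of these neighbours, J2KO and PclWT EpiLCs overlapped, as did PclWT and J2WT EpiLCs.

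The other genes had orders of their own. Eomes stood highest in TKO ESCs (39.6 ± 0.623 CPM) and QKO ESCs (15.2 ± 0.855), and the other 10 groups lay between 6.40 and 13.1 CPM with most neighbours overlapping. Tbx20 was highest in TKO ESCs (15.6 CPM) and QKO ESCs (12.8), which overlapped, and lowest in WT EpiLCs (0.0939). T was highest in TKO ESCs (4.13 CPM) and J2WT ESCs (3.22), which overlapped, and lowest in Pcgf24KO EpiLCs (0.0644). Tbx4 had 3.26 to 5.58 CPM in the 7 EpiLC groups and 0.463 to 1.29 CPM in the 5 ESC groups. Tbx1 was highest in TKO EpiLCs (2.7 CPM), QKO EpiLCs (1.8) and J2KO ESCs (1.03), which did not overlap with each other. Tbx2 and Tbx6 were near the detection limit everywhere, with at most 14 and 20 counts in a library.

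**Figure D1:**
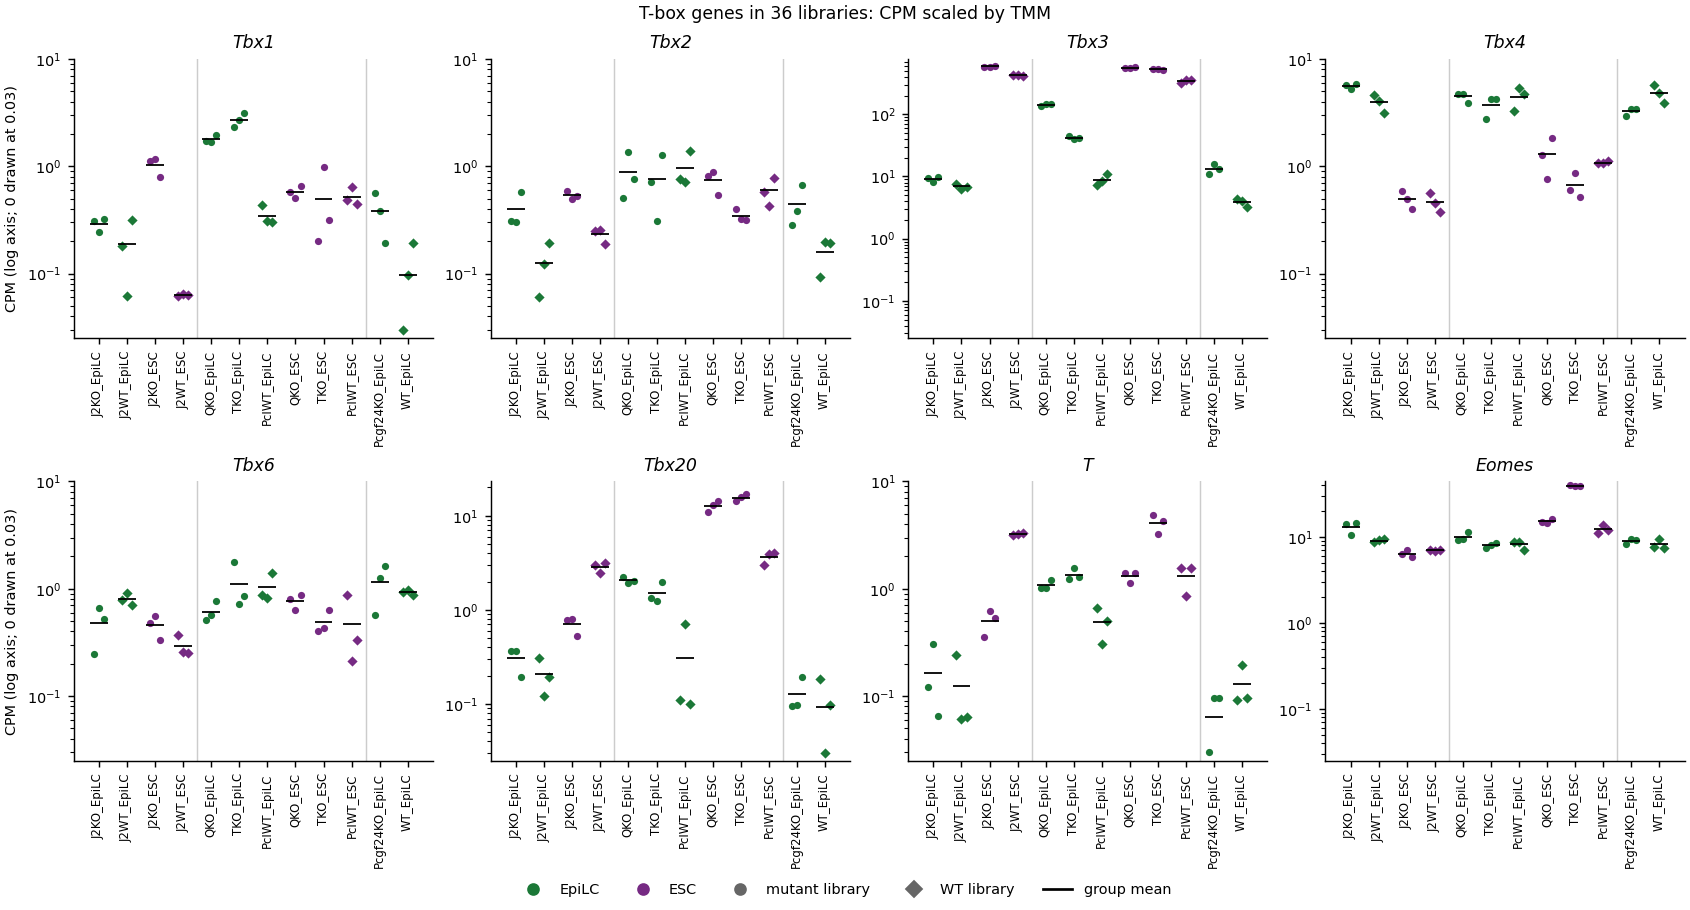
CPM of each of the 8 genes on a log axis in the 12 groups, with 1 point per library and a line at the group mean. Tbx3 and Tbx20 are higher in ESCs than in EpiLCs of the same line, Tbx4 is higher in EpiLCs, and Eomes stands out in TKO ESCs at 39.6 CPM.

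Tbx3 lies at chr5:119670669-119684724 (plus strand), Tbx4 at chr11:85886422-85916097 (plus), Tbx2 at chr11:85832551-85841948 (plus), Tbx6 at chr7:126781483-126785560 (plus) and Tbx20 at chr9:24718138-24774303 (minus). Eomes lies at chr9:118478212-118486132 (plus), T at chr17:8434423-8442496 (plus) and Tbx1 at chr16:18580979-18590671 (minus; GRCm38, GENCODE M21). Exons of Tbx3 and Eomes share 1.74% and 2.84% of their length with the antisense genes Tbx3os1 and Gm33460, and without strand their reads cannot be told apart. RefSeq promoters (GRCm38.p6) matched 6 of the 8 genes, and none was matched for Tbx2 or Tbx3. PRC2 is known to gather at promoters rich in CG dinucleotides, so the 250 bases before the start of 5 genes that differed between lines or stages are given, 5′ to 3′ on the strand of the gene, with each CG in capitals.
Tbx20: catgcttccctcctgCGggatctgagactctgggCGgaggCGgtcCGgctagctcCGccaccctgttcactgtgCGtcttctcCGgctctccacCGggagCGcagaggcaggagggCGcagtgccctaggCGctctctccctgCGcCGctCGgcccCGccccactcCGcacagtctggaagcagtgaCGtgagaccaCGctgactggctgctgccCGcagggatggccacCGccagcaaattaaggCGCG
T: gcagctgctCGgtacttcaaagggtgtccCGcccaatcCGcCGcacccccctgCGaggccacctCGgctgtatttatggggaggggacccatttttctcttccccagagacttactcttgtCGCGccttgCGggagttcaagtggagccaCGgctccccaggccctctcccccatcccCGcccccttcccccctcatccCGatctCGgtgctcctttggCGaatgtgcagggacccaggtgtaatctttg
Tbx1: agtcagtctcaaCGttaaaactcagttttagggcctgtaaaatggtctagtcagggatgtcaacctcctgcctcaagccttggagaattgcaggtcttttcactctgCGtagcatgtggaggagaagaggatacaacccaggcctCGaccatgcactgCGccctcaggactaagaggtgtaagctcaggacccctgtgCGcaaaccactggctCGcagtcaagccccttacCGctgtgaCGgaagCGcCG
Eomes: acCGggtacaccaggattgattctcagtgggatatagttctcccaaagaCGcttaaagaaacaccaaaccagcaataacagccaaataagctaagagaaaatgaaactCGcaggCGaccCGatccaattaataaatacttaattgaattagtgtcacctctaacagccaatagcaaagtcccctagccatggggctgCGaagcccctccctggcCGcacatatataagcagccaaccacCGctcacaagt
Tbx4: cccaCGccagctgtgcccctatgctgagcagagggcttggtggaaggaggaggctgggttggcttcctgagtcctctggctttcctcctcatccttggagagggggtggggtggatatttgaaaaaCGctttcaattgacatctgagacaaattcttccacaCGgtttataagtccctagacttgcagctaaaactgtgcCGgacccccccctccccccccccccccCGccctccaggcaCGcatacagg

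The Tbx20 window (chr9:24774304-24774553) held 22 CG dinucleotides, and 14.8% of 32851 RefSeq promoters of this length held at least as many. The T window (chr17:8434173-8434422) held 14 (29.4% of promoters held at least as many), the Tbx1 window (chr16:18590672-18590921) 10 (37.8%) and the Eomes window (chr9:118477939-118478188) 8 (43%). The Tbx4 window (chr11:85896515-85896764), at a RefSeq start inside the GENCODE gene, held 6 (50.4%), which is also the median. A further start of Tbx1 held 17, and the window of Tbx6 held 6. The T-box half-site AGGTGTGA, searched on both strands, was in none of the 7 windows and in 1.12% of all promoters, and its core GGTGTG, which it contains, was in none of the 7 and in 16.3%.

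From ESCs to EpiLCs, Tbx3 fell and Tbx4 rose in all 5 lines, and Eomes rose in J2KO and fell in TKO. Tbx20 fell where it passed the count minimum given next, and so did T, which passed it in J2WT and TKO only. Genes were tested with edgeR's quasi-likelihood test where their mean normalized count in the libraries compared was at least 15. They were called at a Benjamini-Hochberg adjusted p under 0.05 over all genes tested and an absolute log2 fold change over 1. The members called were 3 of 3 tested in J2KO (27.2% of all genes tested were called), 4 of 5 in J2WT (30.3%), 3 of 4 in QKO (19.2%), 6 of 6 in TKO (22.6%) and 3 of 4 in PclWT (15.4%). A low gene passes the count minimum through the stage where it is high, so these counts only describe the members. The median log2 fold change of the tested members was 1.05 in J2KO, -3.72 in J2WT, -1.27 in QKO, -1.92 in TKO and -2.03 in PclWT.

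The fall of Tbx3 was smaller in QKO and TKO. It was 63.0-fold lower in EpiLCs than in ESCs of J2KO, 60.2-fold lower in J2WT and 38.3-fold lower in PclWT, but 12.3-fold lower in TKO and 3.91-fold lower in QKO. In edgeR the log2 fold change was -1.97 in QKO (SE 0.0477, adjusted p = 4.43e-20) or -1.98 without replicate 2 of the QKO EpiLCs, -3.62 in TKO (SE 0.0496, adjusted p = 5.62e-18) and -5.26 in PclWT (SE 0.183, adjusted p = 3.34e-05), or -5.13 without replicate 1 of the PclWT EpiLCs. The difference in this change between a mutant and PclWT was 3.29 for QKO (SE 0.156, edgeR adjusted p = 3.53e-07), or 3.27 without that QKO library, and 1.61 for TKO (SE 0.154, edgeR adjusted p = 5.83e-05).

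Tbx20 had 2.23, 1.92 and 2.05 CPM in QKO EpiLCs, against 11, 13 and 14.4 CPM in QKO ESCs. It had 0.305, 0.123 and 0.192 CPM in J2WT EpiLCs, against 2.99, 2.45 and 3.15 CPM in J2WT ESCs. All EpiLC libraries lay below all ESC libraries in both lines. Over all genes tested, 48.6% to 83.7% had no overlap between the stages of a line. Its log2 fold change was -2.62 in QKO (SE 0.174, edgeR adjusted p = 5.66e-12), -3.36 in TKO (SE 0.181, edgeR adjusted p = 5.49e-11), -3.48 in PclWT (SE 0.517, edgeR adjusted p = 0.00294) and -3.72 in J2WT (SE 0.322, edgeR adjusted p = 2e-10). It was -2.57 without replicate 2 of the QKO EpiLCs, and in PclWT -3.11 without replicate 1 of the EpiLCs and -4.94 without replicate 2. T had 0.244, 0.0614 and 0.0639 CPM in J2WT EpiLCs, against 3.17, 3.22 and 3.27 CPM in J2WT ESCs. This was 24.1-fold lower (log2 fold change -4.59, SE 0.348, edgeR adjusted p = 1.74e-11), and -5.49 without replicate 1 of the EpiLCs. In TKO it was 2.95-fold lower in EpiLCs (log2 fold change -1.56, SE 0.247, edgeR adjusted p = 2.67e-05), with 1.25, 1.55 and 1.28 CPM in EpiLCs, against 4.84, 3.26 and 4.29 CPM in ESCs.

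Tbx4 had 5.71, 5.22 and 5.82 CPM in J2KO EpiLCs, against 0.594, 0.496 and 0.398 CPM in J2KO ESCs. It had 4.76, 4.75 and 3.93 CPM in QKO EpiLCs, against 1.27, 0.762 and 1.85 CPM in QKO ESCs. All EpiLC libraries lay above the ESC libraries. Its log2 fold change was 3.48 in J2KO (edgeR adjusted p = 4.43e-15), 3.10 in J2WT (1.25e-10), 1.75 in QKO (2.49e-06), 2.48 in TKO (2.22e-06) and 2.04 in PclWT (0.00155). It was 1.71 in QKO and 2.22 in PclWT without the library of each that stood apart. Eomes rose in J2KO, with 14.2, 10.7 and 14.5 CPM in EpiLCs, against 6.35, 7 and 5.84 CPM in ESCs (log2 fold change 1.05, SE 0.115, edgeR adjusted p = 1.13e-09), a call that is lost at 0.99 without replicate 3 of either group. It fell in TKO, with 7.57, 8.04 and 8.51 CPM in EpiLCs, against 40.3, 39.1 and 39.5 CPM in ESCs (-2.27, SE 0.089, edgeR adjusted p = 8.66e-13). In J2WT, QKO and PclWT its log2 fold changes were 0.39, -0.57 and -0.57, all under 2-fold. Tbx1, tested in TKO alone, was 5.46-fold higher in EpiLCs (2.45, SE 0.391, edgeR adjusted p = 2.99e-05). Its value ranged from 2.05 to 3.34 (highest without replicate 2 of the TKO ESCs) over the 3 of 6 libraries whose removal left it above the count minimum.

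**Figure D2:**
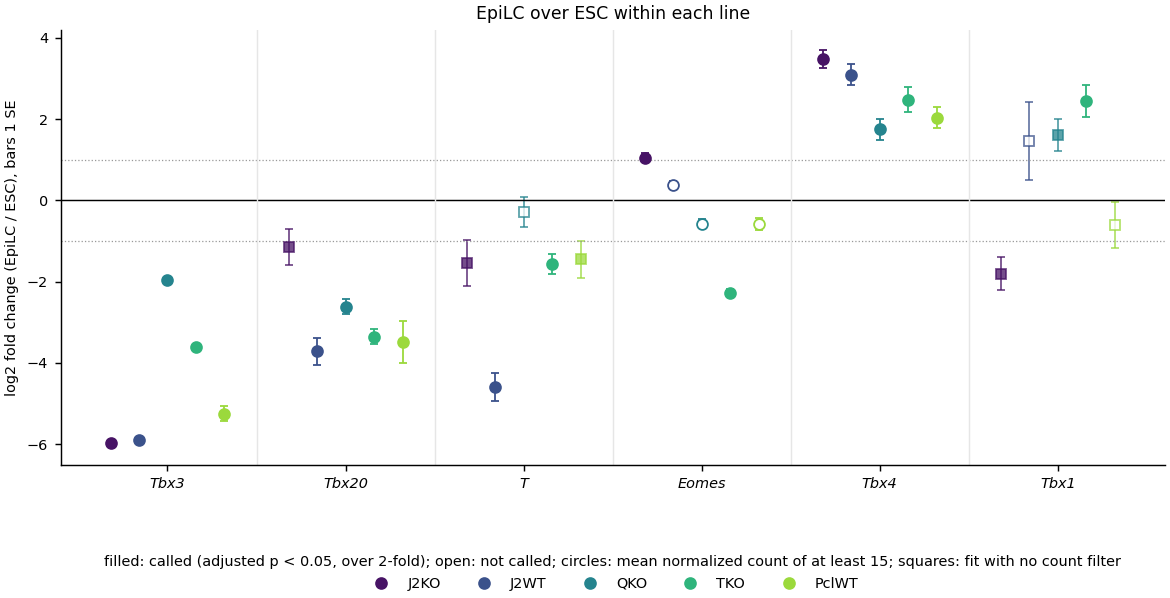
Log2 fold change of EpiLCs over ESCs for the members in the 5 lines, with the standard error as a bar; filled symbols passed the test, and squares come from the fit with no count minimum. Tbx3 is at -5.98 in J2KO and at -1.97 in QKO, Tbx4 is above 1 in every line, and Eomes is at 1.05 in J2KO and -2.27 in TKO.

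Loss of JARID2 alone went with lower T and Tbx20 in ESCs. T had 0.356, 0.620 and 0.531 CPM in J2KO ESCs, against 3.17, 3.22 and 3.27 CPM in J2WT ESCs, 6.4-fold lower (log2 fold change -2.68, SE 0.24, edgeR adjusted p = 4.26e-09). Tbx20 had 0.772, 0.805 and 0.531 CPM in J2KO ESCs, against 2.99, 2.45 and 3.15 CPM in J2WT ESCs, 4.04-fold lower (-2.01, SE 0.235, edgeR adjusted p = 2.08e-07). The J2KO libraries lay below all J2WT libraries for both genes, and 73.2% of all genes tested had no overlap here. Tbx3 differed by less than 2-fold (0.47, SE 0.03, edgeR adjusted p = 2.35e-11) and Eomes did not pass the test (-0.15, SE 0.11, edgeR adjusted p = 0.241). Thus 2 of 4 tested members were called, against 13.3% of all genes tested. T and Tbx20 passed the count minimum through the J2WT ESCs, where they are high, so this count only describes the members. The summed CPM of 4 trophoblast markers was 1.79 to 2.97 in J2KO ESCs and 12.8 to 13.4 in J2WT ESCs, and that of 4 primitive streak markers was 1.3 to 1.9 in J2KO and 1.81 to 3.02 in J2WT. Those of 4 primitive endoderm markers (7.06 to 7.84 in J2KO, 2.96 to 3.49 in J2WT) and 3 neuroectoderm markers (20.9 to 23 in J2KO, 14.3 to 16.1 in J2WT) were higher. No marker of these lists was at 0 throughout a group. The part of these cells in the result was not tested.

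Tbx1 was below the count minimum in that comparison, with 19, 19 and 12 counts in J2KO ESCs, against 1, 1 and 1 in J2WT ESCs. The ratio of the summed counts, scaled by library size, was 15.9, with an exact 95% interval of 5.14 to 79.7 that covers counting error only. With no count minimum its log2 fold change was 3.89 (SE 0.564, edgeR adjusted p = 3.79e-11), where 10.3% of the genes were called. In J2KO EpiLCs Tbx1 had 5, 4 and 5 counts, against 3, 1 and 5 in J2WT EpiLCs.

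In J2KO EpiLCs, 0 of 3 tested members were called by edgeR or by DESeq2 (8.82% of all genes tested were called by edgeR). All 3 had an edgeR adjusted p under 0.05 but less than a 2-fold difference, with log2 fold changes of 0.42 for Tbx3 (SE 0.11), 0.50 for Tbx4 (SE 0.145) and 0.53 for Eomes (SE 0.104). The effect of JARID2 loss was compared between EpiLCs and ESCs as a difference of log2 fold changes, and 2 of 5 tested members were called (11.3% of all genes tested). These were Tbx20 (2.58, SE 0.609, edgeR adjusted p = 0.000693) and T (3.07, SE 0.836, edgeR adjusted p = 0.00268). Both had at most 6 counts per library in the EpiLCs of J2KO and J2WT, so the difference rests on the ESCs. T lost its call without replicate 2 of the J2KO EpiLCs (2.31, edgeR adjusted p = 0.0886) and was 3.98 without replicate 1 of the J2WT EpiLCs. Without any 1 of the J2WT ESC libraries neither gene reached the count minimum.

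In TKO ESCs, Tbx20, T and Eomes were all higher than in PclWT ESCs. Tbx20 had 14.2, 15.8 and 16.9 CPM in TKO ESCs, against 3.00, 3.96 and 4.01 CPM in PclWT ESCs, 4.17-fold higher (log2 fold change 2.06, SE 0.15, edgeR adjusted p = 6.25e-10). Eomes had 40.3, 39.1 and 39.5 CPM in TKO ESCs, against 11.2, 13.8 and 12.1 CPM in PclWT ESCs, 3.13-fold higher (1.65, SE 0.0903, edgeR adjusted p = 1.13e-11). T had 4.84, 3.26 and 4.29 CPM in TKO ESCs, against 1.55, 0.856 and 1.56 CPM in PclWT ESCs, 3.02-fold higher (1.60, SE 0.265, edgeR adjusted p = 3.11e-05). No TKO library overlapped with PclWT for these 3 genes, as for 69.1% of all genes tested, and Tbx3 differed by under 2-fold (0.59, SE 0.0535, edgeR adjusted p = 1.34e-08). In all, 3 of 4 tested members were called, against 13.8% of all genes tested. T passed the count minimum through the TKO ESCs, where it is high, so this count only describes the members. The primitive streak markers summed to 2.39 to 3.23 CPM in TKO ESCs, with Mesp1 at 0, and to 4.07 to 5.24 CPM in PclWT ESCs, and the trophoblast markers to 4.5 to 5.14 CPM in TKO ESCs and 8.45 to 9.11 CPM in PclWT ESCs. The neuroectoderm markers summed to 27.7 to 30.8 CPM in TKO ESCs and 0.428 to 1.11 CPM in PclWT ESCs, with Zic1 at 0 in both, and the primitive endoderm markers to 7.49 to 8.9 CPM in TKO ESCs and 4.68 to 6.59 CPM in PclWT ESCs. The part of such cells in the result was not tested.

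In QKO ESCs, which lack JARID2 as well, T and Eomes were lower than in TKO ESCs, whereas Tbx20 did not pass the test. Against PclWT ESCs, QKO ESCs had 1 of 3 tested members called (13.9% of all genes tested). It was Tbx20, with 11, 13 and 14.4 CPM in QKO ESCs, against 3.00, 3.96 and 4.01 CPM in PclWT ESCs (log2 fold change 1.79, SE 0.162, edgeR adjusted p = 3.64e-08). Against TKO ESCs, QKO ESCs had 2 of 4 tested members called, both lower (4.53% of all genes tested). Here too T passed the count minimum through the TKO ESCs, so this count only describes the members. Eomes had 14.8, 14.6 and 16.2 CPM in QKO ESCs, against 40.3, 39.1 and 39.5 CPM in TKO ESCs, 2.6-fold lower (-1.38, SE 0.0815, edgeR adjusted p = 4.63e-11). T had 1.39, 1.14 and 1.41 CPM in QKO ESCs, against 4.84, 3.26 and 4.29 CPM in TKO ESCs, 3.11-fold lower (-1.64, SE 0.251, edgeR adjusted p = 2.59e-05). Tbx20 had a log2 fold change of -0.28 (SE 0.12, edgeR adjusted p = 0.0655), and Tbx3 did not pass the test either (0.09, SE 0.0419, edgeR adjusted p = 0.0826). The neuroectoderm markers summed to 9.4 to 10.6 CPM in QKO ESCs and 27.7 to 30.8 CPM in TKO ESCs, and the trophoblast markers to 8.92 to 10.1 CPM in QKO ESCs and 4.5 to 5.14 CPM in TKO ESCs. The primitive endoderm markers summed to 14.3 to 16.5 CPM in QKO ESCs and 7.49 to 8.9 CPM in TKO ESCs. The primitive streak markers summed to 2.66 to 3.43 CPM in QKO ESCs and 2.39 to 3.23 CPM in TKO ESCs. The part of such cells in the result was not tested.

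**Figure D3:**
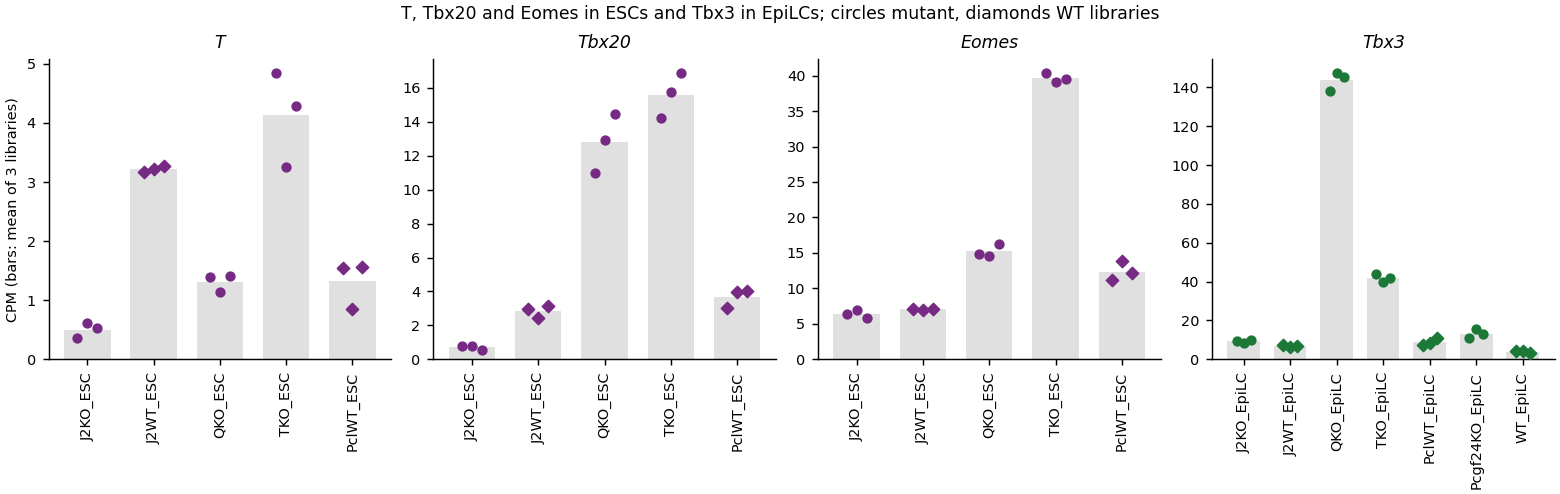
CPM of T, Tbx20 and Eomes in ESCs and of Tbx3 in EpiLCs (y axes from 0), with 1 point per library (circles for mutants, diamonds for WT) and a bar at the group mean. In ESCs, Eomes is near 39.6 CPM in TKO and 15.2 CPM in QKO, whereas Tbx20 is at 15.6 CPM in TKO and 12.8 CPM in QKO.

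Loss of JARID2 was measured on both backgrounds, as QKO over TKO and as J2KO over J2WT, and these comparisons share no library. The paper lists J2WT and J2KO from another laboratory than PclWT and TKO, so the backgrounds differ in more than the Polycomb-like proteins. Counts in genes also differed, at 15924615 to 18026492 per J2WT or J2KO library and 6784578 to 11253158 per TKO or QKO library. Line origin and depth therefore cannot be told apart from Polycomb-like loss in these differences. In ESCs the difference between them was called for 3 of 4 tested members (16.8% of all genes tested). For Eomes it was -1.22 (SE 0.132, edgeR adjusted p = 1.15e-08), from -1.38 in QKO over TKO and -0.15 in J2KO over J2WT. For Tbx20 it was 1.74 (SE 0.28, edgeR adjusted p = 6.58e-06), from -0.28 and -2.01. For T, lower on both backgrounds, it was 1.04 (SE 0.384, edgeR adjusted p = 0.021), a call lost in DESeq2 (1.06, adjusted p = 0.0546), with no count minimum (edgeR adjusted p = 0.0553), and without J2KO ESC replicate 1 (0.84, edgeR adjusted p = 0.0907), TKO ESC replicate 2 (0.90, 0.0523) or QKO ESC replicate 3 (0.99, 0.0573). In EpiLCs 1 of 4 tested members was called (11.6% of all genes tested), Tbx3 at 1.35 (SE 0.114, edgeR adjusted p = 7.53e-11), or 1.33 without replicate 2 of the QKO EpiLCs.

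Among the members past the count minimum, Tbx3 was the one called in QKO and TKO EpiLCs against PclWT. It had 138, 147 and 145 CPM in QKO EpiLCs and 44.1, 40.0 and 41.7 CPM in TKO EpiLCs, against 7.22, 8.49 and 10.8 CPM in PclWT EpiLCs. The 3 groups did not overlap. Of all genes tested, 53.8% did not overlap between QKO and PclWT, 55% between TKO and PclWT, and 52.7% between QKO and TKO. In QKO it was 15.8-fold higher than in PclWT (log2 fold change 3.98, SE 0.164, edgeR adjusted p = 6.39e-05), and the value was 3.87 without replicate 1 of PclWT and 3.97 without replicate 2 of QKO. In TKO it was 4.62-fold higher (2.21, SE 0.161, edgeR adjusted p = 0.000343), and 2.10 without replicate 1 of PclWT. QKO exceeded TKO 3.33-fold (1.74, SE 0.0482, edgeR adjusted p = 4.17e-17), and the log2 fold change was 1.73 without replicate 2 of QKO. The members called were 1 of 3 tested in QKO (13.7% of all genes tested), 1 of 3 in TKO (14.1%) and 1 of 5 in QKO over TKO (4.84%).

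The naive, primitive endoderm and neuroectoderm marker sums were also higher in these EpiLCs than in PclWT. Other sums, given after them, were not all higher. The 6 naive markers summed to 1040 to 1150 CPM in QKO EpiLCs and 493 to 553 CPM in TKO EpiLCs, against 217 to 230 CPM in PclWT EpiLCs, and the 4 primitive endoderm markers to 33.9 to 34.6 CPM in QKO and 57.1 to 68.9 CPM in TKO, against 3.17 to 4.61 CPM in PclWT. The 3 neuroectoderm markers summed to 49.5 to 57.9 CPM in QKO and 90.8 to 95.8 CPM in TKO, against 3.9 to 5.42 CPM in PclWT. The formative markers summed to 310 to 360 CPM in QKO and 674 to 715 CPM in TKO, against 517 to 585 CPM in PclWT. In the same order, the primitive streak markers summed to 1.72 to 2.37, 3.92 to 5.39 and 2.73 to 2.9 CPM. The trophoblast markers summed to 2.74 to 3.76, 6.81 to 7.73 and 2.87 to 4.92 CPM, and 4 fibroblast markers to 9.39 to 9.92, 8.63 to 11.7 and 13.3 to 13.9 CPM. Of 12 naive genes, which include these 6 markers, 8 were higher and 1 lower in QKO, and 6 were higher and 2 lower in TKO. The lower ones were Klf2 (log2 fold change -1.31 in QKO and -2.52 in TKO) and, in TKO, Tcl1 (-1.47). Of the summed markers, Col3a1 (fibroblast) was at 0 in QKO, TKO and PclWT, and Elf5 (trophoblast) was at 0 in TKO. The part of such cells in the Tbx3 level was not tested. Tbx4 did not pass the test in QKO (-0.03, SE 0.214, edgeR adjusted p = 0.924) or TKO (-0.30, SE 0.257, edgeR adjusted p = 0.405). Eomes did not pass it in QKO (0.26, SE 0.165, edgeR adjusted p = 0.263) or TKO (-0.07, SE 0.154, edgeR adjusted p = 0.746).

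The mutant effects in EpiLCs and ESCs were set against each other. For TKO the difference was called for 2 of 5 tested members (7.57% of all genes tested), Tbx3 at 1.61 (SE 0.154, edgeR adjusted p = 5.83e-05) and Eomes at -1.73 (SE 0.163, edgeR adjusted p = 5.66e-05). For QKO it was called for 1 of 4 (7.25%), Tbx3 at 3.29 (SE 0.156, edgeR adjusted p = 3.53e-07). Without replicate 1 of the PclWT EpiLCs these values were 1.5, -1.67 and 3.17. The stage change of the WT lines, PclWT minus J2WT, differed for 1 of 5 tested members (21.4%), T at 3.16 (SE 0.627, edgeR adjusted p = 0.00171), which reached the count minimum through J2WT ESCs. It was 2.91 without replicate 1 of the PclWT EpiLCs and 4.05 without replicate 1 of the J2WT EpiLCs.

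**Figure D4:**
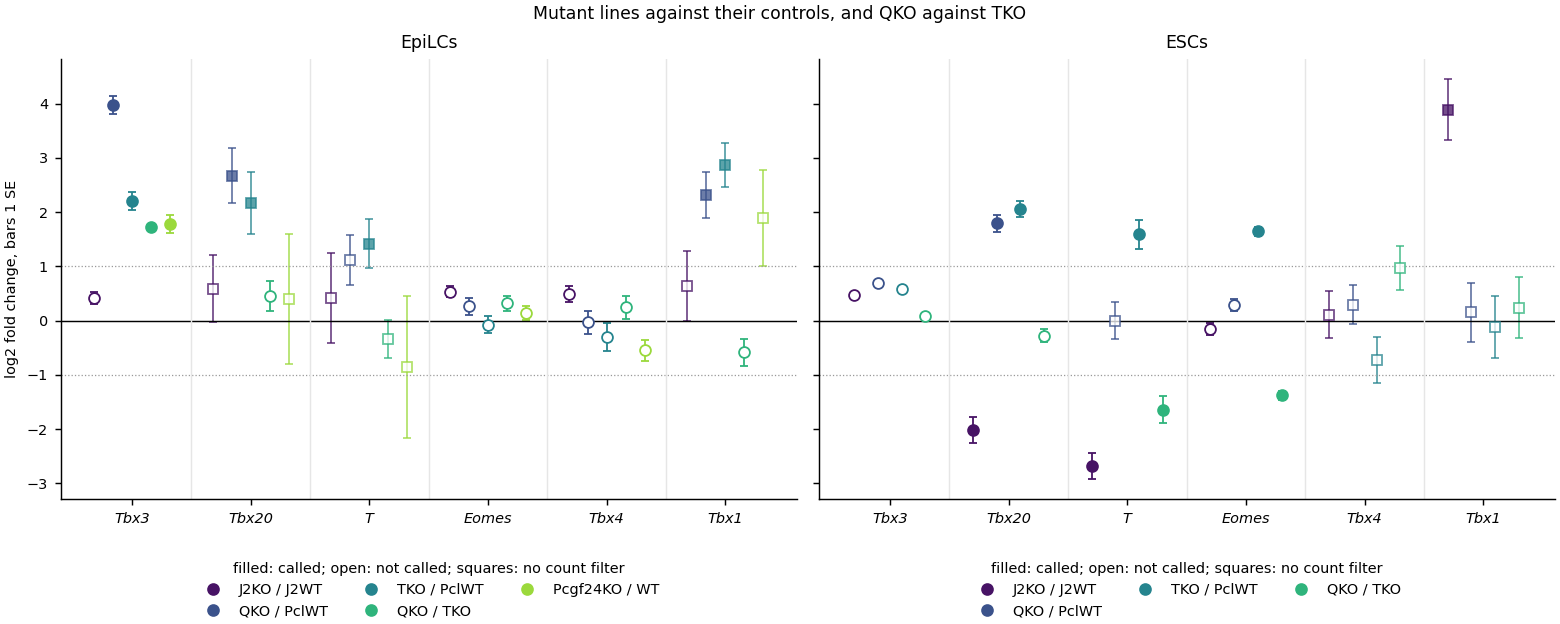
Log2 fold change of each mutant over its control for the members, in EpiLCs and in ESCs, with the standard error as a bar. Circles had a mean normalized count of at least 15, squares come from the fit with no count minimum, and filled symbols passed the test. In EpiLCs Tbx3 is at 3.98 in QKO and 2.21 in TKO, and in ESCs T is at -2.68 in J2KO and 1.60 in TKO.

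Tbx3 was also higher in EpiLCs without PCGF2 and PCGF4. It had 10.8, 15.8 and 13.3 CPM in Pcgf24KO EpiLCs, against 4.34, 4.11 and 3.19 CPM in WT EpiLCs, 3.44-fold higher (log2 fold change 1.78, SE 0.159, edgeR adjusted p = 1.28e-10). Tbx3 did not overlap between these groups, as was so for 60.5% of all genes tested. It was the only 1 of 3 tested members called (5.83% of all genes tested). Tbx4 was lower by under 2-fold (-0.55, SE 0.19, edgeR adjusted p = 0.0157), and Eomes did not pass the test (0.14, SE 0.131, edgeR adjusted p = 0.389). The naive markers summed to 556 to 613 CPM in Pcgf24KO and 275 to 287 CPM in WT, and the formative markers to 1530 to 1600 CPM in Pcgf24KO and 2840 to 2860 CPM in WT. The primitive endoderm markers summed to 17.4 to 19.1 CPM in Pcgf24KO and 3.91 to 4.99 CPM in WT, the neuroectoderm markers to 12.6 to 13.8 CPM in Pcgf24KO and 28.6 to 32 CPM in WT, and 4 fibroblast markers to 3.12 to 5 CPM in Pcgf24KO and 15.3 to 16.1 CPM in WT, with Col3a1 at 0 in both. The part of such cells was not tested.

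With no count minimum, all 8 members entered each fit. The members that this added and that were called are given by comparison, with the share of all genes called there. In TKO EpiLCs against PclWT these were Tbx1 (log2 fold change 2.86, SE 0.403, edgeR adjusted p = 3.65e-05), Tbx20 (2.17, SE 0.563, edgeR adjusted p = 0.00945) and T (1.42, SE 0.446, edgeR adjusted p = 0.0313), where 9.26% of all genes were called. In QKO EpiLCs they were Tbx1 (2.32, SE 0.425, edgeR adjusted p = 0.000617) and Tbx20 (2.67, SE 0.507, edgeR adjusted p = 0.00087), where 8.7% were called. Tbx1 had 17, 15 and 23 counts in QKO EpiLCs and 26, 26 and 22 in TKO EpiLCs, against 4, 3 and 3 in PclWT EpiLCs, and the groups did not overlap with PclWT. Tbx20 had 22, 17 and 24 counts in QKO EpiLCs and 15, 12 and 14 in TKO EpiLCs, against 1, 7 and 1 in PclWT EpiLCs. In J2KO EpiLCs only Tbx2 was called (1.63, SE 0.649, edgeR adjusted p = 0.04; 7.11% of genes), on 5, 5 and 9 counts, against 1, 2 and 3 in J2WT EpiLCs.

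Between the stages, the added calls were Tbx6 in J2WT (log2 fold change 1.44, 21.9% of genes called) and TKO (1.26, 16.5%), Tbx1 in QKO (1.61, 14.4%), T in PclWT (-1.45, 9.5%), and Tbx1 (-1.81), Tbx20 (-1.16) and T (-1.54) in J2KO (20.3%). T did not pass the test in QKO (-0.29, edgeR adjusted p = 0.545), where its EpiLC and ESC libraries overlapped. Tbx1 also gave the added calls of the differences. Its effect in EpiLCs minus ESCs was -3.27 for J2KO (6.06% of genes called), 2.98 for TKO (3.92%) and 2.20 for QKO (3.95%), and its JARID2 loss in ESCs, QKO over TKO minus J2KO over J2WT, was -3.58 (8.94%). Tbx1 was thus called higher in J2KO ESCs and in QKO and TKO EpiLCs. It was not called in QKO ESCs against TKO ESCs (0.24, edgeR adjusted p = 0.834) or against PclWT ESCs (0.16, edgeR adjusted p = 0.863).

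Among 9 other T-box genes, Tbx18, which acts in the heart and somites, was called in ESCs of all 3 PRC2 mutants. It had a mean of 7.75 ± 0.581 CPM in QKO ESCs and 3.48 ± 0.447 CPM in TKO ESCs, against 0.417 ± 0.0855 CPM in PclWT ESCs (log2 fold changes of 4.15 and 2.98, edgeR adjusted p = 3.38e-10 and 1.39e-07). It had 1.41 ± 0.167 CPM in J2KO ESCs, against 3.37 ± 0.241 CPM in J2WT ESCs (-1.26, edgeR adjusted p = 4.78e-06). Tbx18 was thus higher in TKO and lower in J2KO, like Tbx20 and T. In QKO ESCs over TKO ESCs it was called higher, unlike T, which was lower, and Tbx20, which did not pass the test. Tbx15, known from the skeleton and skin, was higher in QKO EpiLCs (2.61, edgeR adjusted p = 0.00119) and TKO EpiLCs (2.20, edgeR adjusted p = 0.00124), and Tbx21 (T-bet of T cells) was lower in both (-1.91 and -1.68). Against PclWT ESCs, Tbx15 was also called higher in QKO ESCs and Tbx21 lower in TKO ESCs.

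Of 21 other primitive streak and mesendoderm genes, 7 were tested in J2KO ESCs and 4 were lower, among them the Wnt target Sp5 (log2 fold change -3.72) and the caudal genes Cdx2 (-4.09) and Cdx1 (-2.22), while Gata4 was higher (3.66). In TKO ESCs 3 of 9 were higher, Fst (2.04), Gata4 and Cdx1 (1.11), and 2 were lower, Mixl1 (-1.29) and Mesp2 (-1.25). In QKO ESCs over TKO ESCs 1 of 6 was higher, Gata4, and 2 were lower, Sp5 (-3.67) and Fst (-2.14). In EpiLCs, 4 of 8 were higher and 1 lower in QKO, and 6 of 11 were higher in TKO, led there by Lhx1 (5.63), Gata6 (5.38), Sox17 (3.97) and Gata4 (3.8), of which Gata6, Gata4 and Sox17 are also genes of primitive endoderm. The median log2 fold change of the tested genes of this list was -1.16 in J2KO ESCs, 0.02 in TKO ESCs and 1.24 in TKO EpiLCs. Of 16 genes of Nodal and Wnt signalling, which act upstream of T and Eomes, 14 were tested in these comparisons. In J2KO ESCs 2 were higher, including Lefty1 (1.77), and 1 lower, in TKO ESCs only Tdgf1, a Nodal co-receptor, was higher (1.31), and in QKO over TKO ESCs 3 were lower, Sp5, Lef1 (-1.72) and Lefty1 (-1.19).

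Over the 12 group means of log2 CPM, the genes most like Tbx3 among 13365 were Nr5a2 (Pearson r = 0.985), Klf4 (0.984) and Fam81a (0.984), and 250 genes had r over 0.9. Those most like Tbx4 were Cacna1b (0.979), Cep78 (0.978) and Ifit2 (0.976), and those most like Tbx20 were Sh3rf2 (0.968), AC131065.2 (0.968) and Agfg1 (0.967). Eomes had few genes like it, with Rassf4 at 0.925 as the single gene over 0.9, then P2ry2 at 0.85. Between members r was -0.864 for Tbx3 and Tbx4, 0.855 for Tbx3 and Tbx20, and 0.323 for Tbx3 and Eomes. The groups share lines and stages, so these values are descriptions over 12 points.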

How the data were processed

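Poly(A) RNA of 36 libraries was sequenced with a kit that does not keep strand, and the authors deposited whole-number counts per gene, made with STAR on GRCm38 with Ensembl annotation. The unstranded count column was used, and reads in no gene (23.2 to 30.2% per library) were left out. Gene names and lengths came from GENCODE M21, and promoters from RefSeq. Differences were tested in R 4.3.3 with edgeR 4.0.16 (quasi-likelihood, TMM), each comparison on its own libraries, with Benjamini-Hochberg adjustment over all genes whose normalized counts averaged at least 15, and an absolute log2 fold change over 1 for a call. The steps were tested on simulated data. Alternatives were DESeq2 1.42.0, RLE scaling, no count minimum, a minimum of 50, a replicate block, 1 fit per line family and leaving out each library. All 8 members are named, and list genes only in part, mostly those with the larger changes. The members and lists were chosen with earlier results of these data known. Replicate numbers carry no stated pairing, and deviations of same-numbered libraries correlated above 0.1 in all 3 pairs only for PclWT EpiLCs and ESCs (0.451, 0.241 and 0.205). No 2 libraries of a group differed by less than sampling noise.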

Additional observations from a re-analysis of the deposited data

Results flagged for a closer look

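The following effects of members differed between 2 settings by the test of the difference itself in edgeR, as differences of log2 fold changes with Benjamini-Hochberg adjusted p. The effect of JARID2 loss in EpiLCs minus ESCs was 2.58 for Tbx20 (adjusted p = 0.000693), 3.07 for T (0.00268) and 0.67 for Eomes (0.000856). Tbx20 and T had at most 6 counts per library in the EpiLCs of J2KO and J2WT, so their differences rest on the ESC values, and T lost its call without replicate 2 of the J2KO EpiLCs (2.31, edgeR adjusted p = 0.0886). The TKO effect in EpiLCs minus ESCs was 1.61 for Tbx3 (5.83e-05) and -1.73 for Eomes (5.66e-05), and the QKO effect was 3.29 for Tbx3 (3.53e-07).

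The stage change in PclWT minus that in J2WT was 0.67 for Tbx3 (edgeR adjusted p = 0.00668), 3.16 for T (0.00171; at most 6 counts per library in these EpiLCs) and -0.95 for Eomes (0.000466). JARID2 loss in QKO over TKO minus that in J2KO over J2WT was 1.35 for Tbx3 in EpiLCs (7.53e-11). In ESCs it was -0.36 for Tbx3 (3.28e-07), 1.74 for Tbx20 (6.58e-06), 1.04 for T (0.021; lost in DESeq2 at adjusted p = 0.0546) and -1.22 for Eomes (1.15e-08). The values of 0.67, -0.95 and -0.36 are below a 2-fold difference. All differences in this paragraph set lines of different origin and depth against each other.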

How the results depend on the processing

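RLE scaling, the fit of a line family and the replicate block changed no call of a member. With the block, for example, 0 members were called in J2KO EpiLCs, as without it. Over all alternatives, 243 of 270 counts of called members stayed within 1.5 times, and 1024 of 1058 log2 fold changes kept direction and side of the threshold. At a count minimum of 50 fewer members were tested. The number called was then lower by more than 1.5 times in the stage changes of J2WT, PclWT and TKO and in QKO over TKO ESCs. Smaller drops are not listed. None was then called in J2KO ESCs, in the J2KO effect between stages or in the WT stage difference. With no count minimum all 8 were tested, and 6 were called in the stage change of J2KO (20.3% of all genes). There were 1 in J2KO EpiLCs (7.11%), 4 in TKO EpiLCs (9.26%), 3 in QKO EpiLCs (8.7%) and 2 in the QKO effect between stages (3.95%). Leaving out 1 library gave 1 to 2 members in TKO EpiLCs (2 without any 1 PclWT library), 0 to 2 in the J2KO effect, 1 to 2 in the QKO effect (2 without replicate 2 of PclWT EpiLCs), 0 to 2 in the WT stage difference (0 without any 1 J2WT ESC library) and 1 to 2 in JARID2 loss in EpiLCs.

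Reversals concerned only values that were not called. With no count minimum Eomes in the QKO effect was 0.022. Leaving out 1 library gave ranges of -0.196 to 0.114 for Tbx4 in QKO EpiLCs, -0.125 to 0.014 for Tbx3 in the J2KO effect, -0.337 to 1.55 for Tbx20 and -0.429 to 0.09 for T in the TKO effect, -0.54 to 0.064 for Tbx4 and -0.118 to 0.054 for Eomes in the QKO effect, and -1.262 to 0.66 for Tbx20 in the WT stage difference. The cause was not tested. Below about 20 counts per library, as for Tbx1, Tbx2, Tbx6 and, in EpiLCs, T, depth limits what can be detected.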
